A study of Mus musculus with 4 samples.

Results

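Gas1 encodes a cell-surface protein that binds hedgehog ligands and, with Cdon and Boc, helps present them to the receptor Ptch1. In the limb bud, Sonic hedgehog is made in the posterior mesenchyme and controls outgrowth and digit pattern. Pitx1 is a homeodomain transcription factor of the hindlimb bud, where it acts in hindlimb identity. The peaks described here are those of Pitx1 chromatin immunoprecipitation with sequencing (ChIP-seq) in the stretch around Gas1, given as chromosome 13 from 59900000 to 60600000 in mouse build mm9. A peak belongs to this window if its midpoint lies in it, and a replicated region is the union of peaks that overlap by at least 1 bp between the replicates. The window held 29 of the 10274 replicated regions of the series, formed by 29 of its 35 replicate 1 peaks (of 14753 in all) and 32 of its 43 replicate 2 peaks (of 25027 in all). The window was chosen by its number of replicated regions, which were already known to be many. Counts, spacing, sharing and scores come from those same peaks, so they are given as descriptions and none was tested. Under reciprocal overlap of 50% in place of 1 bp, 19 replicated regions were left. The name Gas1 says only where the window lies, since DNA bound near a gene need not act on it.

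Pitx1 ChIP was done in 2 libraries, and another 2 hold input chromatin made without antibody. The tissue was the hindlimb bud at embryonic day 11.5, and the mice were ICR and wild type. Material from 3 ChIPs was used for making the libraries. Whether the replicates were separate litters is not stated, and what differs between them may be technical. The input libraries have no peak list here and enter no comparison. No control antibody enters the comparisons, so the peaks are named after the antibody and not called binding sites.

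Positions are given relative to 60.28 Mb, the approximate site of Gas1 in mm9, which is rounded to 10 kb. Negative distances are at lower coordinates. Distances under 10 kb therefore cannot say whether a peak lies in the gene, its promoter or its flank. In the RefSeq annotation of another build (GRCm38.p6), used for names, order and strand only, Gas1 is on the minus strand, so higher coordinates are on the side of its promoter. Its nearest protein-coding neighbours there are Tut7 at lower coordinates, which encodes an enzyme that adds uridines to RNA, and Dapk1 at higher coordinates, which encodes a death-associated protein kinase. Between Tut7 and Gas1 that annotation lists 5 entries, all long noncoding RNAs. Between Gas1 and Dapk1 it lists 4, namely 3 long noncoding RNAs and 1 pseudogene. Which peaks lie in which of these entries was not determined.

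Sequences under the peaks were not read, because no mm9 genome was used here. The stretch of Gas1 that can be shown is its RefSeq promoter, given to describe the gene the window is named for. Whether any peak covers it was not determined. The 250 bases before its start are given from GRCm38.p6, minus strand, chr13:60177536-60177785. These coordinates are of that build and cannot be set against the mm9 peak positions.
Gas1 promoter: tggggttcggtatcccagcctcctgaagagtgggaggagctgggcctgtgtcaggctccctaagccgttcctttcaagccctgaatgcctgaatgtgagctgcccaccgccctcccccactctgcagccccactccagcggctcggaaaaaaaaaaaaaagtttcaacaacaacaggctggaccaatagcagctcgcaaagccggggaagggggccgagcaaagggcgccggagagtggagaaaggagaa
It is 58.8% G and C, against a median of 52.4% over the 32851 RefSeq promoter entries of the same length, of which some genes have several, and 68.9% of them have a lower share. It holds 10 CpG dinucleotides, against a median of 6. The bicoid-class homeodomain site TAATCC, the kind of site Pitx factors are known to bind, was searched on both strands and had 0 matches, while 6.25% of the promoters hold it. The shorter homeodomain core TAAT, which lies within TAATCC, also had 0 matches and is held by 54.9% of the promoters. No letters are therefore in capitals. This says only that these letters are not in these 250 bases.

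Pitx1 regions were spread along most of the window, and 22 of the 29 lay within 200 kb of Gas1. Spacing was not closest there, since 4 regions from 249 to 269 kb lay within 19.5 kb of each other. The outermost replicated regions lay at -298 kb and 269 kb from Gas1, so that together they spanned 568 kb. On the promoter side of Gas1, at higher coordinates, there were 13 replicated regions over 320 kb. On the other side there were 16 over 380 kb. These are 4.06 and 4.21 regions per 100 kb, so the density averaged over each side was close. Within 10 kb of the position taken for Gas1 there were 2 replicated regions, within 50 kb there were 5, within 100 kb 12 and within 200 kb 22.

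**Figure D1:**
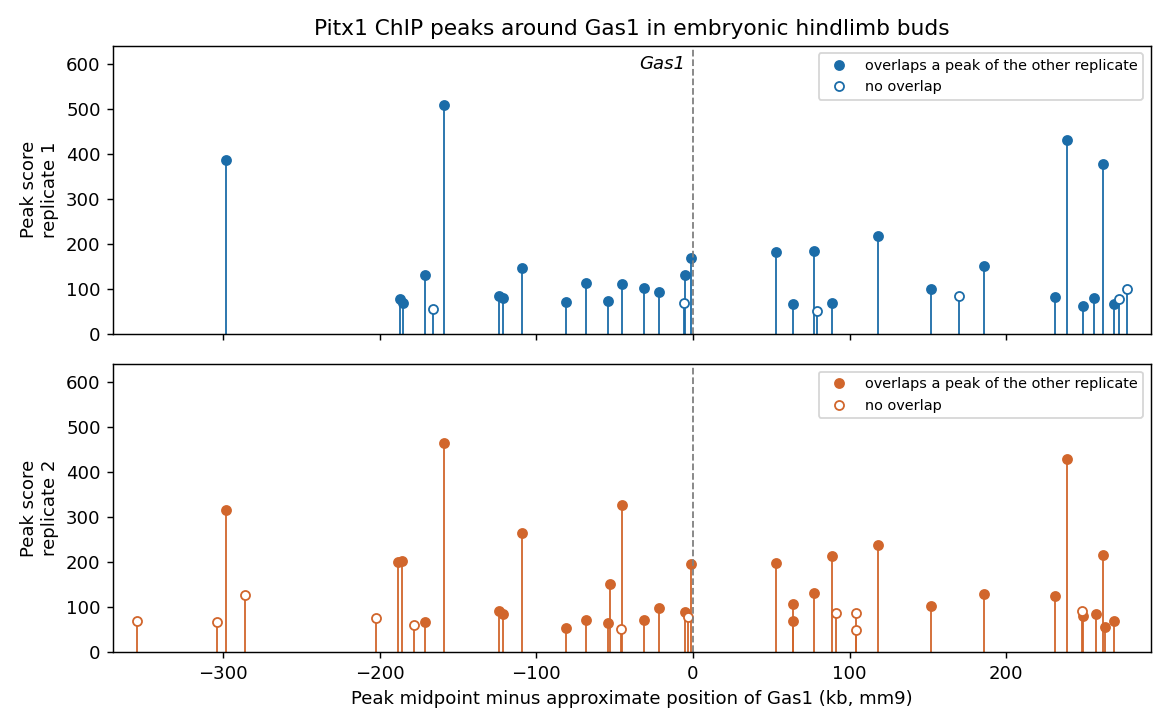
Peak score (vertical axis, the peak caller's own value) against peak midpoint minus the approximate mm9 position of Gas1 in kb (horizontal axis), for replicate 1 in the upper panel and replicate 2 in the lower. Filled points overlap a peak of the other replicate and open points do not; the highest points stand at -159 kb in both panels (509 and 465), away from the dashed line at Gas1.

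In bins of 100 kb, the replicated regions numbered 1 from -380 to -280 kb, 2 from -280 to -180 kb, 6 from -180 to -80 kb and 7 from -80 to 20 kb. The counts were 5 from 20 to 120 kb, 2 from 120 to 220 kb and 6 from 220 to 320 kb. The bin that holds Gas1 thus had the most, by 1 region, and a second group stood at its far end toward higher coordinates. The bins at the lower end and from 120 to 220 kb were sparse.

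**Figure D2:**
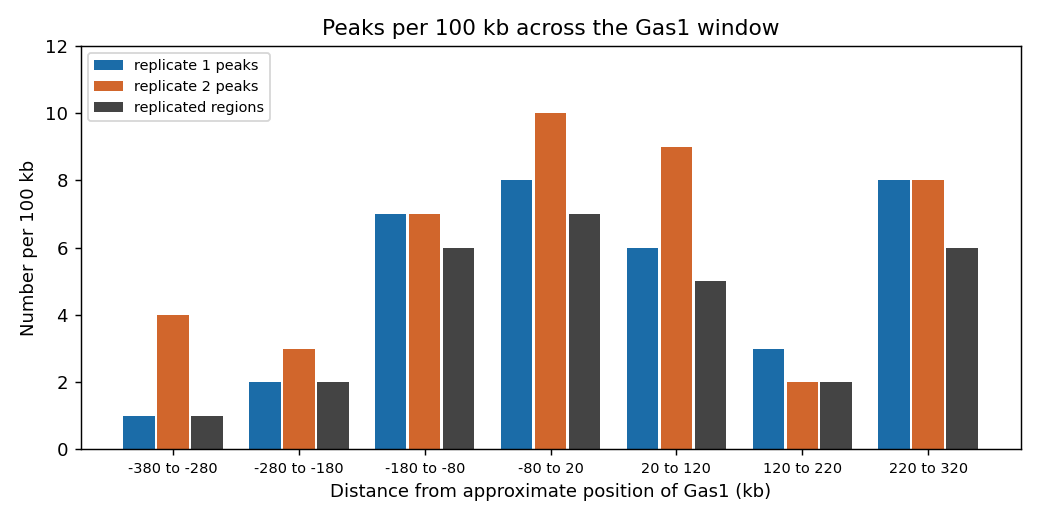
Number of replicate 1 peaks, replicate 2 peaks and replicated regions (bars, from 0) in each 100 kb bin of the window, by distance from the approximate position of Gas1 in kb. The counts of replicated regions run from 1 at the lower end to 7 in the bin with Gas1, with 6 in the bin farthest toward higher coordinates.

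The replicated region nearest to Gas1 lay on chromosome 13 from 60278385 to 60279578, at -1 kb. Its score was 169 in replicate 1 (rank 2317 of 14753) and 195 in replicate 2 (rank 4333 of 25027). A score is the peak caller's own value, and is used only to rank peaks within a list. By the sum of its ranks this region was at place 9 of the 29 in the window. Ranks were summed without scaling to list length, so the longer replicate 2 list can weigh more in every such order. A second replicated region lay from 60274421 to 60275599, at -5 kb, where replicate 1 scored 132 and replicate 2 scored 90.2. Each library also had a further peak there without a partner. Replicate 1 had one from 60273533 to 60274397 (score 68.1), which ends 23 bp before the next replicate 1 peak, and replicate 2 had one from 60276537 to 60277072 (score 77.8). So 3 peaks of each library lay within 10 kb of Gas1, of which 2 in each were shared.

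The strongest Pitx1 regions of the window were far from Gas1, as were many of the weaker ones. By the sum of ranks, the first was on chromosome 13 from 60120834 to 60122072, at -159 kb, where replicate 1 scored 509 (rank 200) and replicate 2 scored 465 (rank 1020). The second was from 60518545 to 60519345, at 239 kb, where replicate 1 scored 430 (rank 334) and replicate 2 scored 429 (rank 1216). The third, from 59981075 to 59982291 at -298 kb, scored 387 in replicate 1 (rank 433) and 316 in replicate 2 (rank 2054). It was also the first region of the window by position and stood alone, with the next replicated region 111 kb away.

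The fourth strongest was from 60541621 to 60543262, at 262 kb, where replicate 1 scored 378 (rank 460) and replicate 2 scored 216 (rank 3715). There 1 replicate 1 peak covered 2 replicate 2 peaks, the other of which scored 57.0. The fifth was from 60397624 to 60398390, at 118 kb, where replicate 1 scored 217 (rank 1492) and replicate 2 scored 239 (rank 3152). These 5 regions lay on both sides of Gas1, and the nearest of them was 118 kb from it. Places 6 to 9 by sum of ranks lay nearer, at -109, 53, -45 and -1 kb. Within 100 kb of Gas1 lay 12 of the 29 replicated regions, so most regions of the window were also far from it. Whether strength goes with distance from Gas1 was not tested. The last region by position, from 60548173 to 60549017 at 269 kb, was weak, scoring 66.0 in replicate 1 and 69.8 in replicate 2.

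Apart from the strongest regions, most regions of the window were of ordinary strength. Of the 29, 3 were among the best 10% of the 10274 replicated regions by sum of ranks, and 13 were in the better 50%. Their median place in that order, in which the longer replicate 2 list can weigh more, was 5689 of 10274. The first region of the window was 448 in the order of the series, the second 585 and the third 937. The weakest, from 60198941 to 60199528 at -81 kb, was at 9796, scoring 71.5 in replicate 1 and 54.4 in replicate 2.

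The same held for all peaks of the window in their own lists. The 35 replicate 1 peaks scored from 51.1 to 509 with a median of 92.9, against a median of 81.3 over the whole list. Their median rank percentile, where 0 is strongest, was 40.8 (quartiles 19.6 and 59.6). The 43 replicate 2 peaks scored from 50.2 to 465 with a median of 91.2, against 87.6 over the list, and their median rank percentile was 47.4 (quartiles 17.2 and 65.8). The highest score decile of its list held 4 replicate 1 peaks (11.4%) and 4 replicate 2 peaks (9.30%). Their scores thus lay near the middle of the lists, although the window was among the fullest in number.

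The libraries ordered the regions of the window in a partly similar way, with exceptions. The window had 26 pairs in which 1 peak met 1 peak, and Spearman's rho of their scores was 0.525. It was 0.555 over all 9891 such pairs. Paired peaks share a place in the genome and its mappability, and the value is a description of these libraries. By rank percentile within its own list, 16 of the 26 pairs stood higher in replicate 1 (61.5%), against 34.1% over the series. Rank percentiles place a peak within its own list only, so they measure no change in strength between libraries. Why the window and the series differ in this was not tested. The region from 60234755 to 60235771, at -45 kb, was at the rank percentile 31.5 in replicate 1 and 7.67 in replicate 2, where it was within the highest decile. The region from 60368283 to 60369456, at 89 kb, was at 64.6 in replicate 1 and 15.2 in replicate 2. That from 60108734 to 60109818, at -171 kb, was at 23.9 in replicate 1 and 69.2 in replicate 2. These 3 regions were chosen after their values were seen.

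**Figure D3:**
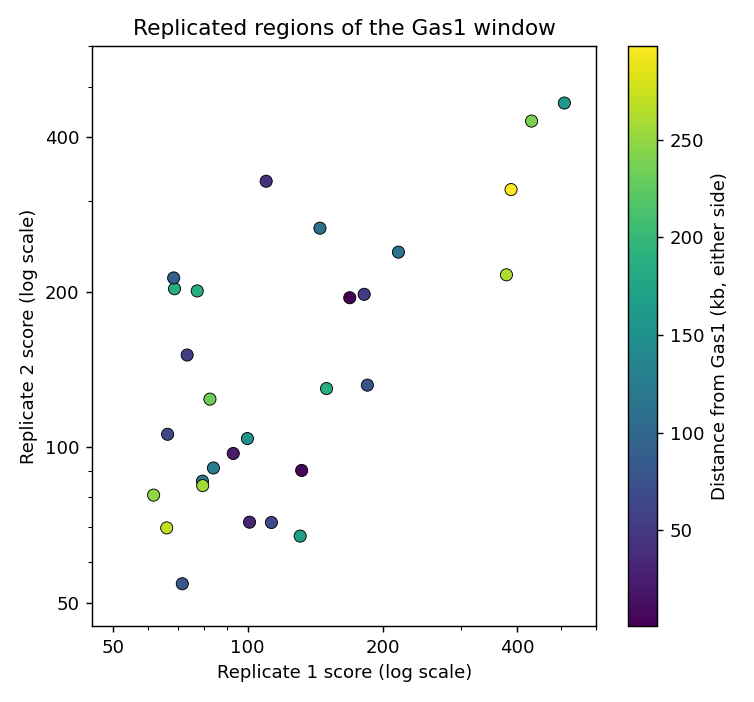
Score in replicate 2 (vertical axis, log scale) against score in replicate 1 (horizontal axis, log scale) for the 29 replicated regions of the window, each at its best peak, coloured by distance from Gas1 on either side in kb. The 4 regions at the right (378 to 509 in replicate 1) are at least 159 kb from Gas1. The 2 darkest points, within 10 kb of Gas1, score 132 and 169 in replicate 1 and 90.2 and 195 in replicate 2.

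Most neighbouring Pitx1 regions in the window were 5 to 20 kb apart. Neighbouring midpoints were a median of 12.5 kb apart (quartiles 8.68 and 28.7 kb, 28 gaps), against 88.7 kb over all autosomes (quartiles 26.7 and 258 kb, 10126 gaps). Gaps of 5 to 20 kb made up 17 of 28 (60.7%) in the window and 14.0% over the autosomes. Gaps under 5 kb were 3 of 28 (10.7%) in the window and 7.07% over the autosomes. Counted under 10 kb, gaps were 9 of 28 (32.1%) in the window and 12.7% over the autosomes. With reciprocal overlap of 50% the median spacing was 21.9 kb, since fewer regions remained.

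The longest gap was the 111 kb from -298 to -187 kb. The gap next to Gas1 toward higher coordinates was the second longest, at 54.4 kb, from -1 to 53 kb, and neither library had a peak in it. On the other side of Gas1, from -187 to -1 kb, 15 replicated regions followed each other with no gap over 34.5 kb. By a limit of 10 kb between neighbours, 1 run had 3 or more regions. It held 4 regions over 19.5 kb, from 249 to 269 kb, and included the fourth strongest region.

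**Figure D4:**
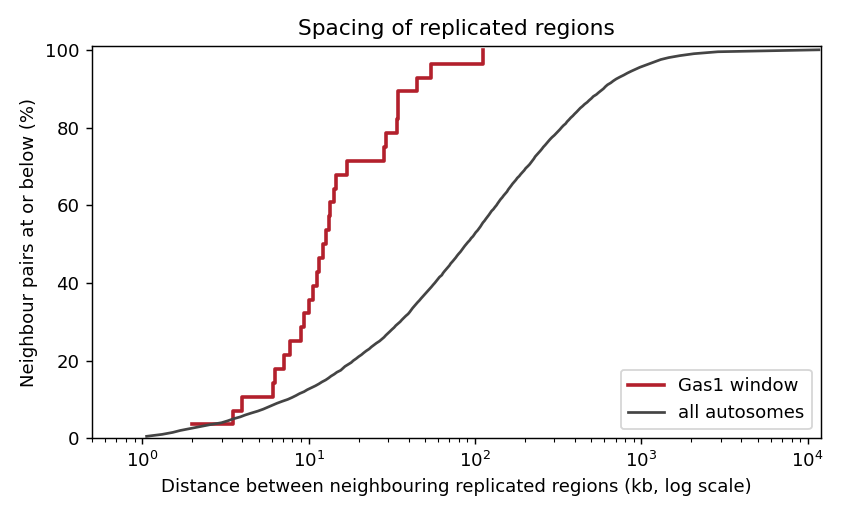
Percentage of neighbouring pairs of replicated regions (vertical axis) at or below a given distance between midpoints in kb (horizontal axis, log scale), for the 28 gaps of the Gas1 window and the 10126 gaps of all autosomes. The line of the window rises steeply around its median of 12.5 kb, where the line of the autosomes is still low (median 88.7 kb).

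The lower edge of the window fell in a sparse stretch. Toward lower coordinates the next replicated region outside was 427 kb from the first one inside, on chromosome 13 from 59554242 to 59555059 (scores 75.8 in replicate 1 and 134 in replicate 2). In between lay a replicate 1 peak just outside the window, from 59871107 to 59872249 (score 121). Inside the window, unshared replicate 2 peaks at -355 and -304 kb also lay in this stretch. Toward higher coordinates the next replicated region was 99.8 kb beyond the last one inside, near the median gap of 88.7 kb over all autosomes. It ran from 60647924 to 60648816 (scores 64.1 in replicate 1 and 156 in replicate 2). Unshared replicate 1 peaks at 272 and 277 kb lay in that gap. A window of the same length placed anywhere over this stretch held at most 30 replicated regions.

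Few stretches of the genome held as many Pitx1 regions. The window had 29, or 41.4 per Mb, against a mean of 2.87 and a median of 2 in 3513 other autosomal windows of 700 kb, or 4.10 per Mb. That is 10.1 times the mean. Of those windows 95% held 9 or fewer, 99% held 14 or fewer, and the fullest held 26. Windows without a replicated region were 874 (24.9%), and these include sequence on which reads cannot be placed. The lists alone gave the same picture. Replicate 1 had 35 peaks in the window, against a mean of 4.12, and 2 of the 3513 windows had as many or more. Replicate 2 had 43, against a mean of 7.0, and 3 windows had as many or more.

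**Figure D5:**
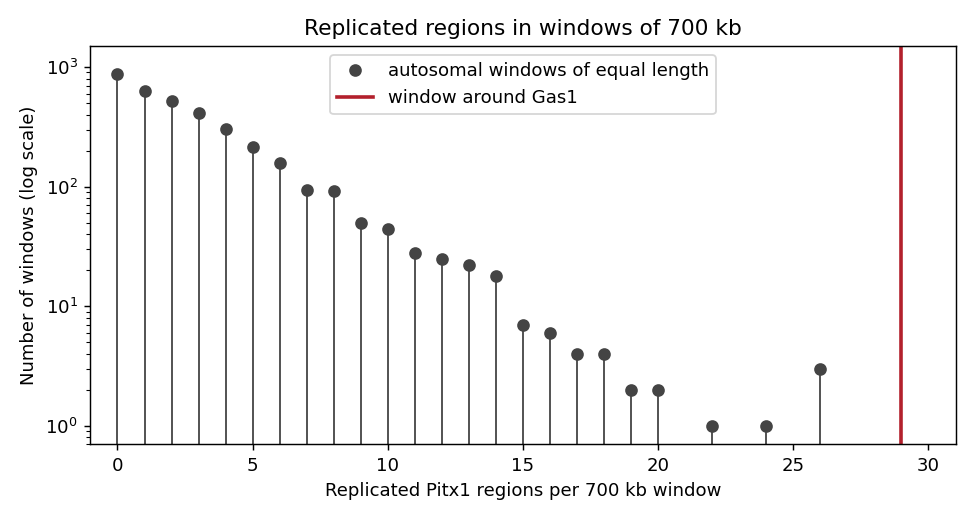
Number of autosomal windows of 700 kb (vertical axis, log scale) by how many replicated regions each held (horizontal axis). The line at 29 marks the Gas1 window, and the fullest of the other 3513 windows, which were laid end to end, held 26.

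The count of a window depends on where it starts. When windows of this length were placed to hold as many regions as possible, the stretch around Gas1 held 30, against 29 on chromosome 10 (regions from 119682291 to 120310230), 29 on chromosome 18 (54533738 to 55188963) and 28 on chromosome 2 (74783054 to 75448054). With the Gas1 window kept at its fixed place, where it held 29, 2 of 49072 autosomal windows that start every 50 kb and do not touch it also held 29, and none held more. Placed alike, the stretch around Gas1 thus led the others by 1 region.

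Set beside these 3, the Gas1 window at its fixed place had fewer strong replicate 2 peaks. The highest score decile of replicate 2 held 4 of its 43 peaks (9.30%), against 10 of 47 (21.3%) on chromosome 10, 9 of 48 (18.8%) on chromosome 18 and 12 of 41 (29.3%) on chromosome 2. In replicate 1 the order was different, with 4 of 35 (11.4%) in the Gas1 window, against 5 of 38 (13.2%), 3 of 42 (7.14%) and 6 of 32 (18.8%) in the same order of chromosomes. The best single peak of the Gas1 window was at rank 200 in replicate 1, against 394, 261 and 338. In replicate 2 it was at rank 1020, against 426, 948 and 207. Median spacing was 12.5 kb in the Gas1 window, against 15.1, 11.9 and 17.5 kb. All 4 windows were picked for their counts, so these values are side by side with no test.

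Most peaks of the window were found in both libraries. In replicate 1, 29 of the 35 peaks were shared (82.9%, 95% Wilson interval 67.3 to 91.9%), against 69.8% of the whole list. In replicate 2, 32 of the 43 were shared (74.4%, interval 59.8 to 85.1%), against 42.6% of the whole list. The other dense windows, on chromosomes 10, 18 and 2, were similar. They shared 76.3, 76.2 and 84.4% in replicate 1, and 70.2, 70.8 and 75.6% in replicate 2. The intervals cover counting error only, and the window was chosen for replicated regions, so nothing is read from the gaps to the whole lists. The shares can also be split by score. Below the median score of the list, 10 of 14 replicate 1 peaks (71.4%) and 11 of 20 replicate 2 peaks (55.0%) of the window were shared, against 52.8% and 21.6% of the whole lists. At or above that median, 19 of 21 (90.5%) and 21 of 23 (91.3%) were shared, against 86.8% and 63.6%.

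The unshared peaks of the window ranked below the shared ones at the median. In replicate 1 their median rank percentile was 59.2, against 71.2 for unshared peaks of the whole list. In replicate 2 it was 59.0, against 64.7. The shared peaks of the window were at 35.9 in replicate 1, against 38.3 for shared peaks of the whole list. In replicate 2 they were at 35.8, against 26.3, so there they ranked lower at the median than shared peaks of the list. The 6 in replicate 1 scored from 51.1 to 99.8, and 5 of them were within 10 kb of a replicate 2 peak, in a stretch where neighbouring peaks are about that far apart. The strongest, from 60556431 to 60557710 at 277 kb, scored 99.8 (rank 5407) and lay 7.68 kb from the nearest replicate 2 peak. The 11 in replicate 2 scored from 50.2 to 127, and 6 of them were within 10 kb of a replicate 1 peak. The strongest, from 59993388 to 59994031 at -286 kb, scored 127 (rank 7899) and lay 11.1 kb from the nearest replicate 1 peak. Of the 11, 4 lay in the sparse lower part of the window, from -355 to -202 kb, where replicate 1 had only the peak at -298 kb.

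Peaks of the window were somewhat wider than those of the lists. Median width was 1002 bp against 796 bp in replicate 1, and 505 bp against 455 bp in replicate 2. The replicated regions had a median length of 1040 bp, against 860 bp over the series. In the 26 pairs the replicate 1 peak was a median of 1.7 times as wide as its partner, against 1.45 times over the series. The replicate 1 peak was the wider in 25 of the 26, and likewise in 9133 of the 9891 pairs over the series. Pair midpoints were a median of 76 bp apart in the window, against 58 bp over the series. In 3 of the 29 regions (10.3%, interval 3.58 to 26.4%) a replicate 1 peak covered more than 1 replicate 2 peak, against 3.59% over the series. They lay at -54, 64 and 262 kb.

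The third list that the authors deposited holds positions of 1 bp with no score, and was not used to choose the window. It gave 32 positions in the window, 1 inside each of the 32 shared replicate 2 peaks, so that all 29 regions held at least 1. Over the series 99.7% of shared replicate 2 peaks held one. No position lay in an unshared replicate 2 peak, in the window or over the series. The whole list has 10625 positions, and 10625 shared replicate 2 peaks over the series held one. The median distance from a position to the middle of the replicate 2 peak around it was 40 bp in the window and 46 bp over the series. How this list was made is not stated, but its positions follow the shared replicate 2 peaks throughout. The match in the window is thus a trait of the whole list and no independent evidence for these peaks.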

How the data were processed

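The submitters' processing notes name build mm9 and 5 tool versions, namely bedtools 2.16.2, MACS 1.4.2, Bowtie 0.12.8 and CASAVA in versions 1.8.2 and 1.7. For the role of each and for the caller's settings, nothing is given in the sources used here. Each deposited peak list has MACS names numbered from the first, so the libraries were called separately. The deposited score is the caller's own value per peak (lowest 50.0, highest 3100 in each list). Read counts were not used, so depth is unknown.

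The window was read from the rule that defines it. Comparison windows of 700 kb ran end to end from each autosome's start to its last peak, leaving out those that touch the Gas1 window. Wilson intervals are at 95%. Regions described in full were the 5 with the lowest rank sum, the nearest to Gas1, the first and last, and the strongest unshared peak of each list. The scripts were tested on simulated lists. The window, lists and rules were chosen with earlier results of these data known. Planned counts around other hedgehog pathway genes, and motifs in peaks, were not run, since they need mm9 annotation and sequence. Computing used scipy 1.17.1, numpy 2.4.6, matplotlib 3.10.9 and pandas 2.3.3 in Python 3.11.15.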

Additional observations from a re-analysis of the deposited data

How the results depend on the processing

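No paired analysis was possible because no peak list of the input libraries, whose replicate numbers match those of the ChIPs, was at hand. Of 70 values under alternatives, 50 stayed within 1.5 times (counts) or within the 95% interval (other values) and 20 moved. Under reciprocal overlap of 50% the window held 19 replicated regions, 8 of them at higher coordinates than Gas1. Its percentile among autosomal windows was then 99.86, sharing was 54.3% in replicate 1 and 44.2% in replicate 2, and spacing was 21.9 kb. With midpoints within 250 bp, sharing was 65.7% and 53.5%, and spacing 17.1 kb. The best 50% of each list by score, which hold fewer peaks, left 16 regions, 8 at higher coordinates, 34.0 kb apart. The best 25% left 8 regions, 4 at higher coordinates, 64.6 kb apart, at the percentile 99.60, with 66.7% of replicate 1 peaks shared and median rank percentiles of 55.2 and 59.4 within the shortened lists. A window of 1400 kb was at the percentile 99.77. The cause of the changes with the overlap rule was not tested. With each replicate left out in turn, the window held 35 to 43 peaks, 17 to 19 of them at higher coordinates, 10.2 to 10.5 kb apart, at percentiles of 99.91 to 99.94. Merging regions under 3 kb apart left 26. Shifting the position of Gas1 by 10 kb gave 13 or 15 regions at higher coordinates. Unknown read depth limits any statement on unshared peaks.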
